A study of Mus musculus with 4 samples.

Results

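The series holds 4 arrays of mouse embryonic fibroblasts, wild type primary connective-tissue cells of C57BL/6 embryos, from 2 independent experiments. The comparison described here sets the 2 arrays of experiment 1 against the 2 arrays of experiment 2, so it uses 4 of 4 samples, taken by the replicate number in the sample titles. In each experiment 1 culture received negative control siRNA and 1 received siRNA against Exportin-5 (Xpo5), the nuclear exporter of precursor microRNAs. All cultures shared the same handling: 60 nM siRNA for 12 h, starvation for 48 h in 0.2% fetal calf serum, then 24 h in 20% serum with a second transfection. Total RNA was turned into Cy3-labelled cRNA and read on 1-colour Agilent arrays. The labels do not give the number, sex or age of the embryos behind either culture, nor its passage.

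Primary fibroblast cultures start from different embryos, so 2 cultures can differ in the sex of their cells, in the body regions they came from and in the other cells carried over. Xist is the RNA that coats and silences the inactive X chromosome and is made in cells with more than 1 X, while genes of the Y chromosome are read only in male cells. Interferon-stimulated genes form a second kind of programme: they stand at a low level in resting fibroblasts and rise together when interferon or foreign nucleic acid is sensed.

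Levels are log2 of the processed signal, with each array's own 75th percentile set to 0, so a step of 1 is 2-fold. The gap is the level in experiment 1 minus that in experiment 2. It was taken within control siRNA, within Xpo5 siRNA, and over both, the last from a limma fit with siRNA as a block and Benjamini-Hochberg adjustment over the 14009 genes tested, at a threshold of 0.05. The arrays held between 62.4% and 65.0% of spots well above background and no saturated spot. With 2 arrays a side and 1 residual degree of freedom, precision is limited by their number. Xpo5 itself, the targeted gene, read 1.22 and 1.17 with control siRNA in experiments 1 and 2, and -2.03 and -2.02 with Xpo5 siRNA. The gap of Xpo5 over both siRNAs was 0.02 on this probe, and its other probes gave -0.25 and -0.93. All 14 markers on the fibroblast list were well above background on all 4 arrays. Each slide carried 1 array of each experiment with different siRNAs, and experiment 1 took the first 2 positions on the slides and experiment 2 the other two, so position and experiment cannot be told apart.

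The experiments differed most in genes of the sex chromosomes. Of 14009 genes, 9 passed the threshold (0.0642%), 5 higher in experiment 1 and 4 higher in experiment 2, and 6 of the 9 were X- or Y-linked. Xist was high in experiment 1 and not well above background in experiment 2. Ddx3y, Eif2s3y, Kdm5d and Uty, all on the Y chromosome, showed the opposite, being well above background in experiment 2 alone. The remaining 3 calls, Kcna3, Trpm5 and Actrt2, were dim.

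Xist read 3.004 with control siRNA and 3.01 with Xpo5 siRNA in experiment 1, against -8.29 and -7.89 in experiment 2. The groups lie far apart, and because the second was not well above background, the difference is given as a bound: Xist was at least 518-fold higher in experiment 1 (adjusted p = 0.000316, limma). Here and for the other bounds, the dim group's level on each array was taken as no lower than that of the dimmest probe that still stood well above background there. The 4 Xist probes on the array are shown because they lie at 4 separate places in the transcript and each carries the same contrast. Their mm9 positions are chrX:100656289-100656348, chrX:100658920-100658979, chrX:100659408-100659467 and chrX:100662174-100662233, and their sequences, in that order and in lower case since no part is singled out, are
Xist probe a: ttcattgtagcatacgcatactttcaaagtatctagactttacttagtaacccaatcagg
Xist probe b: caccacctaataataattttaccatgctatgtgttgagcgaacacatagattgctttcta
Xist probe c: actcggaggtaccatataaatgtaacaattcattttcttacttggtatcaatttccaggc
Xist probe d: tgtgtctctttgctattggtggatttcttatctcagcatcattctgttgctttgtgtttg
Probe b is the brightest and gives the level above. Over the same arrays the gaps of probes a, b, c and d were 6.16, 11.10, 9.22 and 7.38, all well above background in experiment 1 alone. Probe a, nearest the 3′ end, is the one whose call was lost when it stood for the gene (adjusted p = 0.131, limma); it read -8.32 with control siRNA and -5.79 with Xpo5 siRNA in experiment 2.

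Tsix, the transcript antisense to Xist, followed it, with 0.72 and -0.15 in experiment 1 and -8.13 and -7.83 in experiment 2, at least 78.3-fold higher in experiment 1 (adjusted p = 0.013, limma). Its single probe lies at chrX:100676837-100676896 (mm9) within the same locus, and the naming of a probe between these overlapping transcripts is uncertain.

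The Y-linked genes were read in experiment 2. Ddx3y, an RNA helicase, read -8.17 and -8.43 in experiment 1 and 1.67 and 1.54 in experiment 2, at least 214-fold higher in the second (adjusted p = 0.000312, limma). Eif2s3y, a subunit of the translation initiation factor eIF2, read -7.96 and -8.38 against 1.38 and 1.44, at least 187-fold higher (adjusted p = 0.000648, limma). Kdm5d, a histone H3 lysine 4 demethylase, read -7.63 and -8.11 against -1.83 and -1.49, at least 22.3-fold higher (adjusted p = 0.013, limma). No array of one experiment came near those of the other for these genes. Uty, a relative of the lysine 27 demethylase Kdm6a, was dim even in experiment 2, at -5.26 and -4.93 against -8.03 and -8.20, at least 2.06-fold higher (adjusted p = 0.039, limma). Of 16 Y-linked genes with a probe, 10 had none well above background on any array, among them Sry and Usp9y. On their brighter probes Zfy1 and Zfy2 were above background on all 4 arrays, with small gaps of -0.47 and -0.68. These gaps did not pass (adjusted p = 0.13 and 0.149, limma). The other probe of each gene was not well above background on any array. Whether the brighter probes also bind other transcripts was not tested.

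The X-linked partners of these genes are known in mouse as genes that escape X inactivation, so that both copies are read in female cells. None passed the threshold, and 3 of the 4 stood higher in experiment 1 by a similar amount. Eif2s3x read 3.90 and 3.70 in experiment 1 and 2.96 and 2.97 in experiment 2, a gap of 0.84 ± 0.11 (SE; adjusted p = 0.112, limma). Kdm5c read 3.39 and 3.199 against 2.72 and 2.51, a gap of 0.68 ± 0.10 (adjusted p = 0.113), and a second Kdm5c probe gave 0.72. Kdm6a read -1.87 and -1.88 against -2.67 and -2.49, a gap of 0.71. In each of these 3 genes both arrays of experiment 1 lie above both of experiment 2. Ddx3x had the smallest gap, 0.19 ± 0.12 (adjusted p = 0.389), with its other probes at 0.32 and -0.21. The Eif2s3x probes disagreed too: the second gave 0.22, and the third, whose mm9 match is split across an intron, gave -0.90, the direction of Eif2s3y. Whether that probe also binds the Y-linked transcript was not tested.

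**Figure D1:**
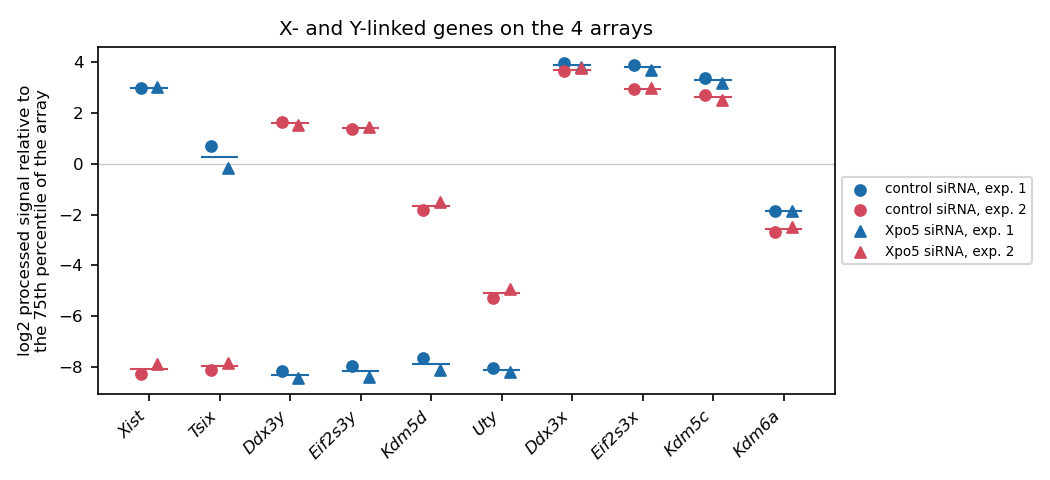
Level of X- and Y-linked genes on each array (y axis, log2 relative to the 75th percentile), blue for experiment 1, red for experiment 2, circles for control and triangles for Xpo5 siRNA, bars for the mean of each experiment. Xist and Tsix are high in experiment 1 and the Y-linked genes in experiment 2, while the X-linked partners differ by less than 1.

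The rest of the X chromosome differed little. Over its 475 other genes tested the median gap was 0.10, with 67.8% higher in experiment 1. The 19 autosomes had medians between 0.05 and 0.08, and all genes together 0.07, with 62.0% higher in experiment 1. The 3 dim calls read as follows: Trpm5, a cation channel, was at least 2.83-fold higher in experiment 1 (adjusted p = 0.0398), Actrt2, an actin-related gene of testis, at least 2.29-fold (adjusted p = 0.039) and Kcna3, a potassium channel named after its values were seen, at least 1.56-fold (adjusted p = 0.0242, all limma). All 3 were below background on both arrays of experiment 2. None of the 3 passed when p-values were adjusted without the genes of chromosomes X and Y, and over 14 alternatives Trpm5 and Actrt2 were called in 5 and Kcna3 in 6.

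Beyond the sex-linked genes, the gap was broadly shared by the siRNA groups. The control gap and the Xpo5 gap use no array in common, and across the 14009 genes 70.9% had the same sign in both. The correlation across genes was r = 0.57 (Spearman's rho = 0.52), and r = 0.48 without the 6 sex-linked genes called. Genes are not independent replicates, and all of an array's genes share its labelling and scan. Of the variation among the 4 arrays, 43.7% lay between experiments, 44.3% between siRNAs and 12.0% in the difference of the gaps. Without the 6 genes these shares were 37.2%, 49.4% and 13.3%. Without regard to sign, the median difference was 0.17 between experiments and 0.18 between siRNAs. A gap of at least 0.5 in the same direction in both siRNA groups was seen in 278 genes higher in experiment 1 and 209 higher in experiment 2 among those well above background on all arrays, and 51 genes had gaps of that size in opposite directions.

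**Figure D2:**
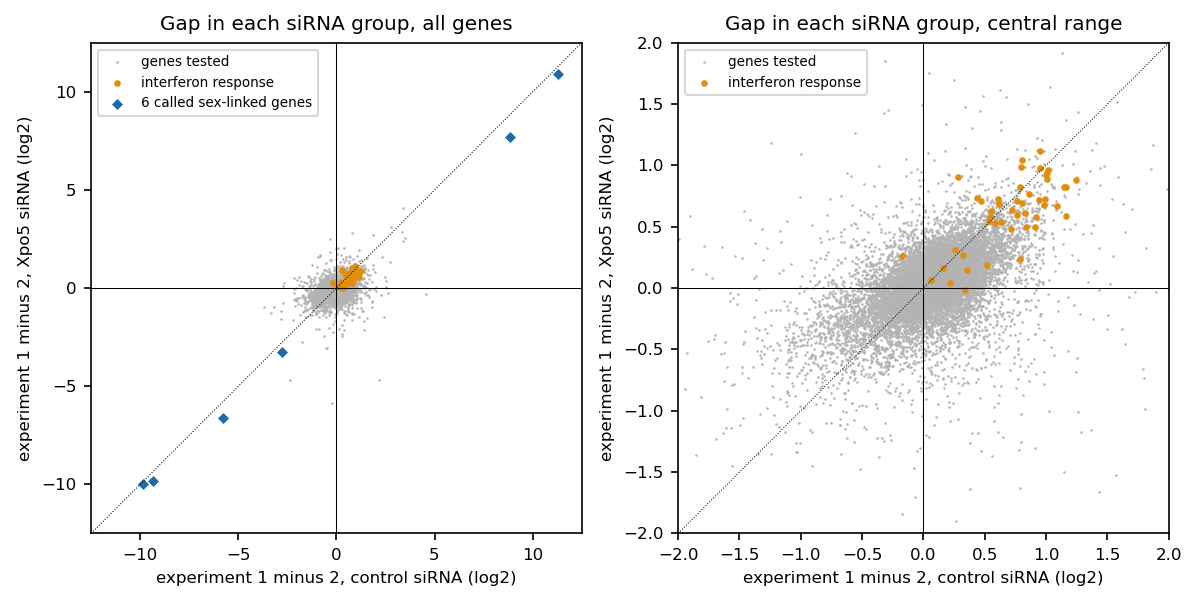
Gap between experiments (log2) in control siRNA (x axis) against Xpo5 siRNA (y axis), 1 grey point per gene, orange for the interferon response list and blue diamonds for the 6 called sex-linked genes, dotted line for equal gaps. The left panel shows all genes and the right panel the range from -2 to 2, outside which some genes lie; interferon response genes sit in the upper right quadrant in 45 of 47 cases.

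The remaining genes did not pass the threshold 1 by 1. The lowest adjusted p among them was 0.0786, and 1401 genes lay between 0.05 and 0.15. They are described below by level and by whether both arrays of one experiment lie above both of the other, which held for 25.7% of all genes with experiment 1 higher and for 14.6% with experiment 2 higher. An unadjusted p under 0.05 was reached by 14.2% of all genes in the first direction and by 8.51% in the second. With a prior variance that depends on intensity, a listed alternative, 1599 genes passed the adjusted threshold, 7.5% of those tested higher in experiment 1 and 3.92% higher in experiment 2.

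The gap also depended on where a probe lies along its transcript. For 4609 genes with several probes well above background on all arrays, the probe nearest the 3′ end had a median gap of 0.09 and the one nearest the 5′ end -0.12. The 3′ probe had the larger gap in 72.9% of them. The difference varied with the distance between the probes: -0.02 under 200 bases (288 genes), 0.14 from 500 to below 1000 bases (380 genes) and 0.33 from 5000 to below 10000 bases (581 genes), then 0.26 from 10000 bases on (1559 genes), measured along the genome, introns included. It was seen in both siRNA groups, 0.25 over all these genes with control and 0.17 with Xpo5 siRNA, while the siRNA contrast over the same pairs gave -0.04. On the arrays themselves the 3′ probe exceeded the 5′ probe by a median of 1.79 and 1.68 in experiment 1 and 1.49 and 1.47 in experiment 2. Both arrays of experiment 1 therefore show a steeper fall towards the 5′ end than both of experiment 2. RNA integrity values are not given in the sources used here, and the part of this slope in the gaps below was not tested. For most named genes whose probes differ in sign, the gaps of the other probes are given.

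**Figure D3:**
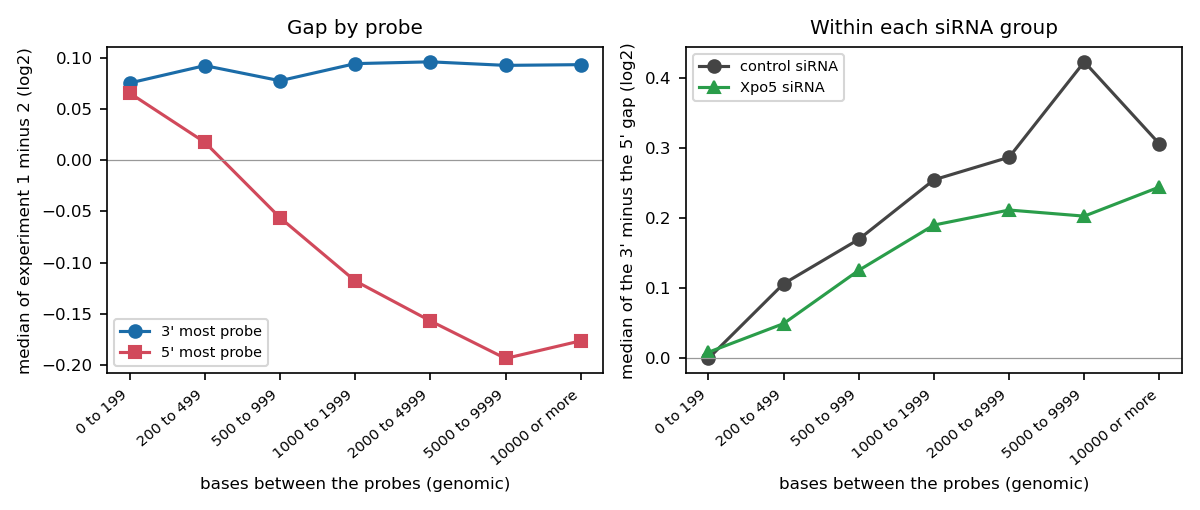
Genes with several probes, grouped by the genomic distance in bases between their 3′ most and 5′ most probe (x axis). Left, median gap between experiments (log2) of either probe: the 3′ probes stay near 0.09 and the 5′ probes fall below 0 from 500 bases on. Right, median of the 3′ gap minus the 5′ gap in each siRNA group, which is positive in both from 200 bases on.

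Among the gene lists with more than 1 measured member, the interferon response had the largest median gap. Of 50 listed genes 47 were measured, and 47 of 47 were higher in experiment 1, with a median gap of 0.68 against 0.07 for all genes. With normexp background correction, which gave unlike values on the Xpo5 siRNA array of experiment 1, the median was -0.16, and without unevenly lit spots it was 0.64. In 36 both arrays of experiment 1 lay above both of experiment 2 (background 25.7%), and none passed the threshold 1 by 1, although 37 did with the intensity trend (background 7.5%). The gap was of similar size in both siRNA groups, 0.79 with control and 0.67 with Xpo5 siRNA, and 45 of 47 genes were higher in both. The list was chosen with earlier results of these arrays known, and its genes were also higher with Xpo5 siRNA, by a median of 0.47. Since each slide pairs different siRNAs, that difference adds to the gap on one slide and takes from it on the other: within slides the median gap was 1.09 and 0.31.

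Named by the smallest unadjusted p were 4 genes. Parp14, an ADP-ribosyltransferase, read 2.09 and 2.64 in experiment 1 (control, then Xpo5 siRNA) and 1.14 and 1.52 in experiment 2, a gap of 1.04 ± 0.11. Iigp1, a GTPase that attacks the vacuoles of intracellular parasites, read 2.47 and 3.10 against 1.45 and 2.14, a gap of 0.99 ± 0.10. In both genes the lower array of experiment 1 stood above the higher array of experiment 2. Oasl2, of the oligoadenylate synthetase family that senses double-stranded RNA, read 3.32 and 3.91 against 2.36 and 2.93, a gap of 0.97 ± 0.10. Ifit1, which binds viral RNA lacking cap methylation, read 2.16 and 2.13 against 1.15 and 1.19, a gap of 0.97 ± 0.10, and is the one of the 4 without a difference between siRNAs. The adjusted p of each was 0.109 (limma). The other Parp14 probes gave -0.01 and 0.59.

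Genes of different roles in the response shared the direction. Isg15, a ubiquitin-like modifier, read 4.94 and 5.41 against 4.13 and 4.37. Bst2, the tether that holds budding virus at the membrane, read 5.11 and 5.33 against 4.34 and 4.62. Gbp2, a guanylate-binding GTPase, read 2.25 and 2.60 against 1.101 and 1.78. None of the 3 overlapped between experiments, with gaps of 0.93, 0.74 and 0.98. Ifi27l2a had the largest gap of the list, 1.06, and Irf7, a factor that amplifies interferon production, the smallest, 0.04, its arrays overlapping. With the 5′ most probe in place of the brightest the list's median was 0.67, and with the 3′ most 0.72.

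**Figure D4:**
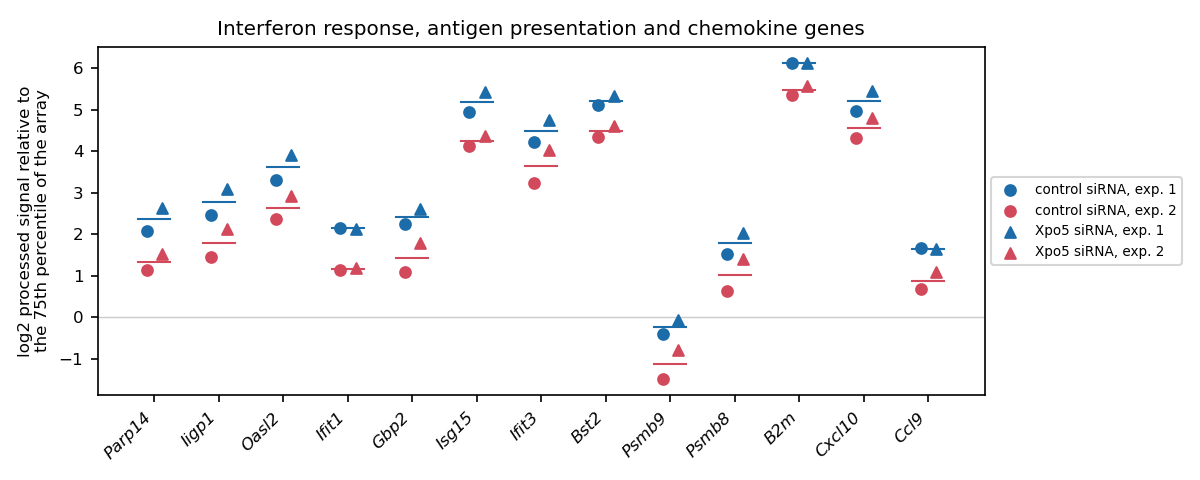
Level of interferon response, antigen presentation and chemokine genes on each array (y axis, log2 relative to the 75th percentile), colours and symbols as in the plot of X- and Y-linked genes. In each gene shown both arrays of experiment 1 lie above both of experiment 2. The genes shown were named by small unadjusted p or after their values were seen. Over the whole lists this held for 36 of 47 interferon response, 8 of 13 antigen presentation and 11 of 21 chemokine and cytokine genes.

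Many such genes carry in their promoter the interferon-stimulated response element. The letters GAAANNGAAA, or TTTCNNTTTC for the other strand, were searched in the RefSeq windows of 250 bases before to 50 after each gene's start (GRCm38.p6, a later build than that of the probes). They occur in 18 of 35 interferon response genes with a window and in 3.72% of the 11091 genes tested that have one. The 5 stretches below, wholly upstream of the start and written on the gene's strand with the match in capitals, are shown because these 5 genes were all higher in experiment 1. Each is 1 match, and the Isg15, Ifit1, Ifit3 and Bst2 windows hold others, overlapping it in Isg15 and Bst2. They lie at chr4:156200861-156200910 (minus strand), chr19:34640784-34640833 (plus), chr19:34583387-34583436 (plus), chr8:71537567-71537616 (minus) and chr3:142620584-142620633 (plus).
Isg15: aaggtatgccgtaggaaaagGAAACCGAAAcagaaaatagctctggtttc
Ifit1: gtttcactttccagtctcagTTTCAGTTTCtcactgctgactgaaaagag
Ifit3: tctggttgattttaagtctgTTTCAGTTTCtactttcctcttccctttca
Bst2: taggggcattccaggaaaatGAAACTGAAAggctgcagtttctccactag
Gbp2: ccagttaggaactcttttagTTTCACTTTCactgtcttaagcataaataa
The match starts 72, 85, 122, 124 and 59 bases before the gene's start, in that order. The 17 measured list members with a match had a median gap of 0.74 and the 15 without one 0.65. The 396 other genes tested that hold the letters had a median of 0.10, against 0.07 for genes without them. A match is a description of the letters and not a binding site.

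Antigen presentation genes followed the interferon response in part. All 13 were measured, and 10 were higher in experiment 1, with a median of 0.41 (0.38 with control and 0.37 with Xpo5 siRNA). In 8 the experiments did not overlap (background 25.7%). The median was 0.13 with the 5′ most probe, 0.24 with the mean of probes, 0.59 and 0.11 within slides and -0.41 with normexp. Psmb9, an interferon-induced subunit of the immunoproteasome, read -0.41 and -0.06 against -1.49 and -0.77, a gap of 0.90 ± 0.13. Psmb8, its partner, read 1.52 and 2.04 against 0.63 and 1.41, a gap of 0.76, and its second probe gave 0.74. B2m, the light chain of class I molecules, read 6.13 and 6.13 against 5.35 and 5.57, a gap of 0.66 with 0.56 and 0.49 on its other probes. In these 3 genes, as in Psmb10 with 0.47, the experiments did not overlap. H2-K1, a class I heavy chain, was less uniform, with probes at 0.43, 0.43, -0.20 and -0.41, and class I genes share sequence with each other. Tap1, the peptide transporter, went the other way at -0.47 with overlapping arrays. The adjusted p of the named genes lay between 0.113 and 0.236 (limma).

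Chemokines and cytokines were also higher in experiment 1. Of 21 measured, 20 were higher and 11 did not overlap (background 25.7%). The median was 0.31 (0.32 and 0.38 in the siRNA groups). It was 0.18 without the control array of experiment 2, 0.55 and 0.076 within slides (13 of 21 higher in the latter) and -0.086 with normexp. Cxcl10, a chemokine for T cells that interferon induces, read 4.96 and 5.46 against 4.32 and 4.79. Ccl9, a myeloid chemokine, read 1.66 and 1.65 against 0.68 and 1.09. Ccl5 and Ccl11 had gaps of 0.55 and 0.46, the other Ccl5 probe giving 0.83. None of the 4 overlapped between experiments, and none passed the threshold (adjusted p between 0.113 and 0.134, limma).

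Markers of macrophages, cells that embryo cultures can carry, were higher beside these programmes. Of 18 listed 17 were measured, all 17 were well above background on every array, and 17 were higher in experiment 1, with a median of 0.41. In 5 of them the experiments did not overlap, against 25.7% of all genes higher in experiment 1 without overlap. The summed linear level of the list, in units of the 75th percentile, was 62.8 and 90.3 in experiment 1 and 44.1 and 75.2 in experiment 2, so the control culture of experiment 1 lay below the Xpo5 siRNA culture of experiment 2. Fcer1g, an adaptor of Fc receptors, read 1.70 and 2.03 against 0.76 and 1.35, and Tyrobp, an adaptor of myeloid receptors, 1.29 and 1.88 against 0.67 and 1.22. Mrc1, the mannose receptor, had a gap of 0.77. Ctss, a lysosomal protease, overlapped, with 1.81 and 2.54 against 0.99 and 1.85, as did the receptor Csf1r (0.37, with 0.14 and -0.52 on its other probes), the surface protein Adgre1 and the phosphatase Ptprc. These genes too were higher with Xpo5 siRNA, by a median of 0.67, and within slides the median gap was 1.11 and -0.25. With 1 array left out the median ranged from 0.063, without the control of experiment 2, to 0.85, without the Xpo5 siRNA array of experiment 2; it was 0.11 without the Xpo5 siRNA array of experiment 1 and 0.71 without its control. The part of macrophages in the interferon and chemokine gaps was not tested. In such bulk samples more cells of a type and more RNA per cell cannot be told apart.

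Markers of other cells gave mixed counts. The 6 mesothelial markers measured had a median of 0.30 (0.17 to 0.52 with 1 array left out), and Msln, the surface protein mesothelin, read -0.08 and 0.02 against -0.79 and -0.54. Of 10 adipocyte markers listed 4 were measured, Adipoq and Plin1 not among them. These 4 also had a median of 0.30, with Lpl, the lipoprotein lipase, at 0.48. Of 13 keratinocyte and epithelial markers listed 8 were measured, Epcam, Cdh1 and Trp63 not among them. Of these 8, 5 were higher in experiment 1 and 3 lower (median 0.27). Krt8, a keratin of simple epithelia, read -2.12 and -2.82 against -2.96 and -3.47. Sfn went the other way with a gap of -0.47, and its other probes gave -0.36 and -0.75. Skeletal muscle markers divided. Cdh15, a cadherin of muscle precursors, was higher in experiment 1, at -2.85 and -2.38 against -6.33 and -4.94 and well above background on 1 of the last 2 arrays. Actc1, the cardiac actin, was higher in experiment 2, at 5.15 and 5.77 against 6.06 and 6.31, and Myh8, a perinatal myosin, had a gap of -1.16 with overlapping arrays. The muscle median was -0.24 over the 9 genes measured of 14 listed, -0.35 with control and -0.06 with Xpo5 siRNA. Myod1, Myf5 and Myog were not measured. Of 9 erythroid markers 1 was measured. Endothelial markers had a median of 0.03 over the 8 genes measured of 12 listed, Pecam1 and Cdh5 not among them.

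Among genes that mark the origin of a fibroblast in the body, positional transcription factors and the Hox clusters A and B had similar gaps, and Hox clusters C and D a median near 0. Of 36 factors measured, 28 were higher in experiment 1, 16 without overlap (background 25.7%). In both siRNA groups 24 were higher, and the median was 0.14. Gata6, a mesoderm factor, read 0.45 and 0.09 against -0.13 and -0.42, but its other probes gave -0.38 and -0.43. Tbx5, of the forelimb and heart, had a gap of 0.45 with -0.59 on its other probe, so the direction of these 2 depends on the probe. Meox2, of the somites, read -1.87 and -2.06 against -2.38 and -2.60. Shox2 and Msx1, limb factors named after their values were seen, had gaps of -0.48 and -0.40, without overlap. Of the 36 factors only 2 were lower without overlap (background 14.6%). In Hox clusters A and B 15 of 19 genes were higher in experiment 1, 4 without overlap (background 25.7%), with a median of 0.13. Within slides that median was -0.04 and 0.25, and it turned negative without the Xpo5 siRNA array of experiment 2. In clusters C and D 7 of 13 were higher (median 0.00). The differences between these lists were not tested.

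Imprinted growth genes had a median of 0.25 over 23 genes, 15 higher (62.0% of all genes) and 8 lower. It was 0.58 and -0.17 within slides, 0.025 without the control of experiment 2 and 0.088 without the Xpo5 siRNA array of experiment 1. Plagl1, a zinc finger regulator of the imprinted network, read 5.02 and 4.67 against 4.03 and 3.99, while its 5′ probe gave -0.21. Nnat, a membrane protein of the endoplasmic reticulum, read -0.64 and -0.82 against -1.47 and -1.31, and Peg10, a retrotransposon-derived gene of placenta, had a gap of 0.71 with overlap. Ndn, a growth suppressor, went the other way with 0.96 and 1.58 against 2.00 and 2.13. Gnas, a G protein subunit, was at -0.58 on its brightest probe and at 0.49, -0.79 and 0.37 on the others. Only 3 of the genes higher in experiment 1 and 4 of those lower were without overlap (background 25.7% and 14.6% of all genes).

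Growth factor and matrix genes differed 1 by 1 rather than as groups. On the list of the IGF axis and growth factors, 17 of 26 genes were higher in experiment 1 (62.0% of all genes). Its median was 0.18, and 0.034 and 0.11 without the control of experiment 2 or the Xpo5 siRNA array of experiment 1. Pdgfra, the receptor for PDGF on fibroblasts, read 2.43 and 2.37 against 1.85 and 1.82, with -0.53 on its 5′ probe, and Vegfd, a lymphatic growth factor, 2.77 and 2.91 against 2.00 and 2.37. Fgf2 read -2.80 and -2.55 against -2.19 and -1.72, a gap of -0.72 with -0.76 on its second probe. Sfrp2, a secreted Wnt antagonist, had one of the larger gaps of any list, with 0.86 and 1.39 against -0.11 and 0.18 (1.08 ± 0.11, adjusted p = 0.109, limma). On the Wnt list 13 genes were higher in experiment 1 and 15 lower (median -0.008), with Wnt5a lowest at -0.72. Gdf10, a BMP family member, had a gap of 0.94, and Nog, the BMP antagonist noggin, one of -0.88 with overlap. They are the highest and lowest of the TGF-beta and BMP list, where 19 of 28 were higher (median 0.08). Among 34 matrix glycoproteins and proteoglycans (median 0.19), Eln, the elastin precursor, was at 0.72 and Lamc1, a laminin chain, at 0.48. Fn1, fibronectin, read 3.29 and 3.68 against 4.38 and 4.18, and its other probes gave -1.28 and -0.79. Bgn, biglycan, read 3.28 and 3.80 against 4.36 and 4.38, with 0.01 on its second probe. Of this list 12 genes were higher and 4 lower without overlap (background 25.7% and 14.6%). Its median was 0.094 with the 5′ most probe and 0.052 without the control of experiment 2.

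On the list of senescence and INK4/ARF genes, 10 of 13 were higher in experiment 1 (median 0.20), but with the mean of each gene's probes the median was -0.022, with 6 of 13 higher. Hmga1, a chromatin architectural protein, read 8.56 and 8.28 against 7.94 and 7.65, and Lmnb1, lamin B1, 3.24 and 3.42 against 2.59 and 2.73. Cdkn2c, the CDK inhibitor p18, had a gap of 0.56 with 0.61 on its other probe. These are the 3 genes of the list higher without overlap (background 25.7%), and Cdkn2a, the INK4/ARF gene itself, was at -0.14. The medians of the G1/S and G2/M lists were 0.10 and 0.07. Of 36 genes each, 0 and 2 were higher without overlap (background 25.7%) and 2 and 4 lower (background 14.6%). The medians of Xpo5 minus control siRNA over the same lists were -0.46 and -0.35, and within slides the G1/S median was -0.36 and 0.54, and that of G2/M -0.30 and 0.39. With 1 array left out, G1/S ranged from -0.20 to 0.37, being negative without the control array of experiment 1 (-0.11) and without the Xpo5 siRNA array of experiment 2. Ribosomal proteins (0.08), oxidative phosphorylation (0.07), glycolysis (0.02), p53 targets (-0.04) and collagens (0.09) had medians close to that of all genes. Small gaps without overlap were nonetheless frequent among ribosomal proteins, 18 of 37 higher in experiment 1, and in oxidative phosphorylation, 14 of 34, against 25.7% of all genes.

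**Figure D5:**
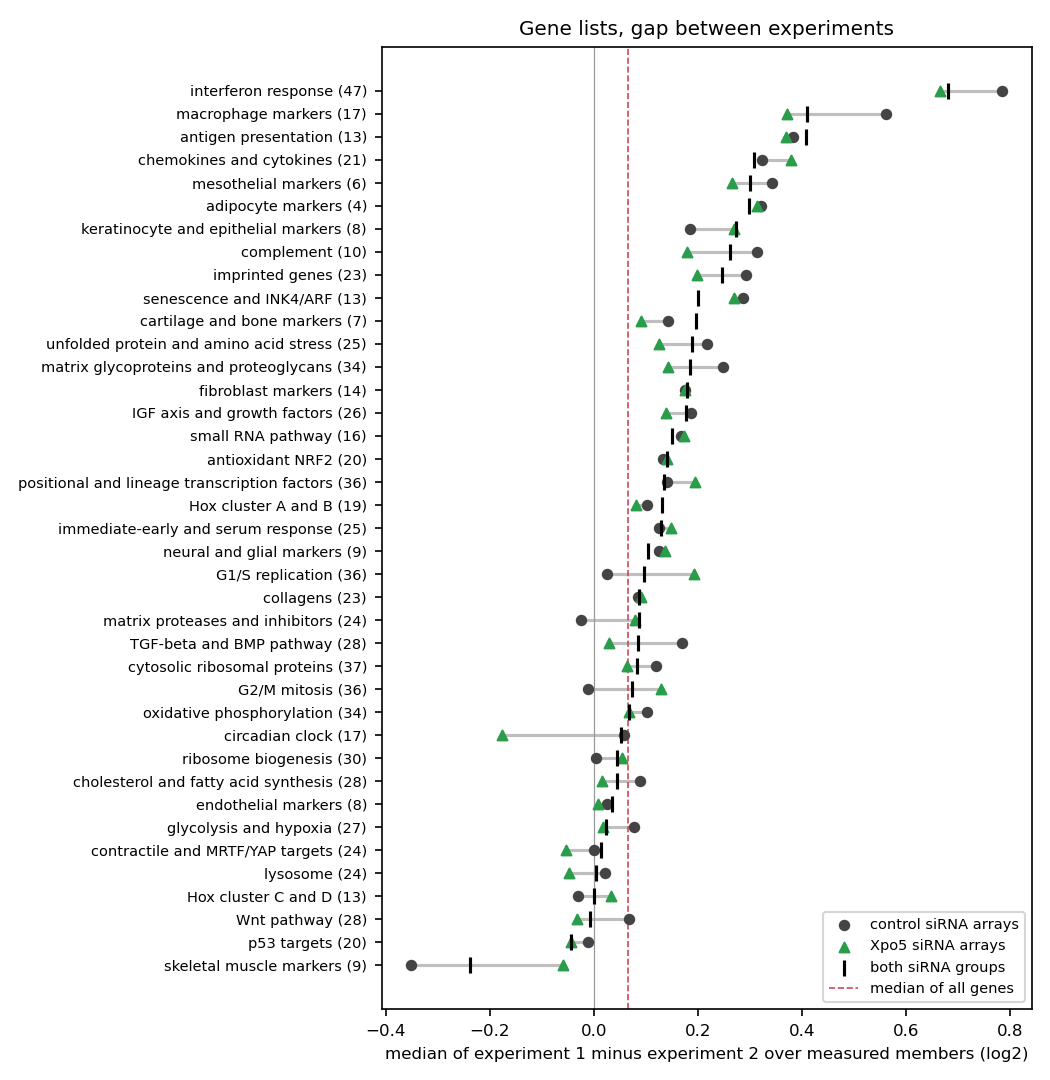
Median gap (log2, x axis) over the measured members of each gene list (number in brackets), circles for control siRNA, triangles for Xpo5 siRNA, black ticks for both, red dashed line for the median of all genes. Lists with under 4 measured members and the sex-linked list are left out; the interferon response lies farthest to the right in both siRNA groups and skeletal muscle markers farthest to the left in control siRNA.

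The genes with the smallest unadjusted p among those well above background on all arrays and of 1 sign in both siRNA groups were listed up to 12 a direction. On the side of experiment 1 they include Trim30d and Slfn5, of families that interferon induces, beside Iigp1, Oasl2 and Parp14. Slfn5 read -1.48 and -0.83 against -2.86 and -1.96, and its other probe gave 1.18, close to the 1.25 of the first. Trim30d read 0.10 and 0.44 against -1.14 and -0.68, with 0.83 on its second probe. Vapb, a tether of the endoplasmic reticulum, came first with 4.58 and 4.72 against 2.999 and 3.203 (1.55 ± 0.10, adjusted p = 0.0786, limma), but its other probes gave 0.14 and -0.19. Erdr1, an abundant transcript near the end of the sex chromosomes, read 6.47 and 6.35 against 5.49 and 5.34, with 0.77 on its other probe, and Ubl7, a ubiquitin-like protein, had 1.07 and 0.68. Gm8995, Mtss2, Pkd2l2 and Clvs1 complete this side with gaps of 1.101, 1.05, 1.01 and 1.12, all at levels below 0.

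On the side of experiment 2, Fam13c read -2.49 and -1.04 against -0.25 and 0.60, a gap of -1.94 ± 0.17 that its 3′ probe did not share (0.70), and Esyt2, an endoplasmic reticulum tether, had -1.19 and 0.36 in the same way. Loxl4, a lysyl oxidase that crosslinks collagen, read -3.85 and -2.95 against -2.21 and -1.77, and its second probe gave -1.85. Thada gave -1.15 and -0.87. Scarf2, a scavenger receptor, read -3.50 and -2.50 against -1.65 and -1.13, and Gna12, a G protein subunit, -3.56 and -2.86 against -2.06 and -1.74, both with 1 probe. Arhgap27, Serpinc1, Tnn (a tenascin), Kcne1 and Spaca6 had gaps of -1.06, -1.13, -1.15, -1.18 and -1.16, the last with 0.21 on its other probe. Eno1, the glycolytic enolase, read 2.60 and 3.09 against 3.72 and 4.05 while the glycolysis list as a whole did not differ. The adjusted p of each of these was 0.109 (limma), and in each the experiments did not overlap (background 14.6%). Their choice by small p and 1 sign in both siRNA groups favours genes without overlap, so this adds no support.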

How the data were processed

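Total RNA of 4 mouse fibroblast cultures was hybridised to 1-colour Agilent 44K arrays. Per the file headers, the authors scanned and extracted intensity values with Feature Extraction 10.5.1.1, and probe positions are mm9. The deposited log2 table holds the same processed signals shifted to 1 median of about 5.33 (within 0.001 for at least 99.7% of probes); it is centred on the array median, its direction is that of signal, and it served as an alternative.

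Processed signals were scaled to the 75th percentile of non-control spots and log2 transformed. Outlier spots were dropped and spots of a probe averaged. Of 41174 probes, 26792 were named by accession, 5125 by symbol and 929 by synonym through RefSeq (GRCm38.p6), and 8328 have no name here. Probes well above background on both arrays of an experiment or of a siRNA group were kept (25886), and the brightest probe stood for a gene. The fit was limma 3.58.1 (R 4.3.3) with siRNA and experiment as terms, eBayes and Benjamini-Hochberg adjustment. It was tested on simulated data. Experiment numbers pair the arrays by design, as both siRNAs were run in each independent experiment; deviations of same-numbered arrays correlated at 0.57. The labels name 2 independent experiments but not their embryos. The single residual of the fit is the difference between the gaps of the 2 siRNA groups, which is also the contrast of the 2 slides. P-values and SE therefore measure that disagreement, moderated across genes, which may be technical in part. They do not measure the spread between replicate cultures of an experiment.

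The comparison, the gene lists and the tests were chosen with earlier results of these data known. Named genes are, by rule, up to 12 a direction past the threshold, above background on all arrays and of 1 sign in both siRNA groups (none passed, so all were filled by unadjusted p); up to 4 a direction below background in 1 experiment; up to 4 members a list by unadjusted p; and up to 4 a direction with opposite gaps. Other genes were named after their values were seen: Kcna3, the X-linked partners, Zfy1, Zfy2, Isg15, Bst2, Gbp2, Ifit3, Irf7, Ifi27l2a, H2-K1, Tap1, Csf1r, Adgre1, Ptprc, Shox2, Msx1, Gnas and Xpo5. Alternatives were background correction (normexp, offset 50), scaling, filter, probe choice, variance trend, block, slide, single arrays left out and the deposited table. The probe order along the transcript and the removal of X- and Y-linked genes were added after seeing the data. Results that need a few items withheld for evaluation are not reported here.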

Additional observations from a re-analysis of the deposited data

Results flagged for a closer look

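Some medians had opposite signs in the siRNA groups, which was not tested. The difference is the gap with control siRNA minus that with Xpo5 siRNA. It was 0.24 for the circadian clock (0.06 against -0.18), -0.14 for G2/M mitosis (-0.01 against 0.13), -0.10 for matrix proteases and inhibitors, 0.10 for the Wnt pathway, 0.068 for the lysosome and -0.064 for Hox clusters C and D. For erythroid markers it was -2.13, resting on Hbb-y alone.

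Single genes well above background on all arrays with opposite gaps were common: 28.8% of 13432. The largest difference was that of Syt10, a synaptotagmin, at 4.87: it read -0.68 with control siRNA in experiment 1 and between -5.35 and -5.07 on the other arrays, so 1 array carries it. Marchf10 differed by 3.09, Tulp1 by 2.79 and Mroh2a by 2.74, all 3 higher in experiment 1 with control siRNA and in experiment 2 with Xpo5 siRNA, the 2 arrays of one slide. The part of the slide was not tested. In the other direction Olfr524 differed by -2.09, Car15 by -2.03, Cytip by -1.97 and Defb3 by -1.80. Over both siRNA groups the gap of Cytip was -0.43, and its other probe, not well above background on all arrays, gave 0.12. The 7 genes other than Syt10 were dim, between -5.86 and -2.75 on all arrays.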

How the results depend on the processing

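With any 1 array left out, in a fit without the siRNA block, 5 to 7 genes were called, and 5 or 6 of the 9 genes of the full fit were among them. Counts were 1 with normexp, which gave unlike values on the Xpo5 siRNA array of experiment 1, 1322 without its unevenly lit spots, 1599 with the intensity trend, 5 with the 5′ most probe and 0 when p-values were adjusted without the genes of chromosomes X and Y (3057 of these at an unadjusted p under 0.05). It was also 0 with no filter (1716 genes at an unadjusted p under 0.05) and with probes above background on all arrays (3345), a filter that by construction removes the genes called. Quantile normalization called 3 higher and 4 lower. Over the 14 alternatives other than plain normexp and both filters, Ddx3y, Eif2s3y, Kdm5d and Tsix were called in 14, Xist in 13, Uty in 8, Kcna3 in 6, and Trpm5 and Actrt2 in 5. The share of genes with the same sign in both siRNA groups was 51.2% with normexp, 64.0% without uneven spots, 69.9% with quantile normalization, 77.0% with median scaling and with the deposited table (which raises the median of all genes to 0.17), 58.8% with no filter and 72.0% with the 5′ most probe. For the siRNA contrast, the fit with the experiment as replicate block called 459 genes and the fit with no replicate block 3.

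The interferon median was -0.16 with normexp, 0.78 with median scaling and with the deposited table, 1.09 and 0.31 within slides, and 0.46 to 0.97 with 1 array left out, where the siRNAs are unbalanced. Of 106 genes described, 95 passed with the intensity trend. These turned direction, with their values: with normexp, Uty 1.25, Kdm5c -0.66, Eif2s3x -0.58, Ddx3x -1.22, Zfy1 1.06, Zfy2 0.96, Parp14 -0.059, Iigp1 -0.28, Oasl2 -0.30, Ifit1 -0.092, Isg15 -0.12, Gbp2 -0.23, Ifit3 -0.48, Bst2 -0.45, Irf7 -0.44, B2m -0.50, Psmb10 -0.82, H2-K1 -0.91, Cxcl10 -0.62, Ccl5 -0.55, Fcer1g -0.044, Tyrobp -0.25, Ctss -0.19, Plagl1 -0.53, Shox2 0.97, Msx1 0.37, Pdgfra -0.47, Vegfd -0.61, Fgf2 0.40, Nog 0.76, Hmga1 -0.32, Lmnb1 -0.46, Lamc1 -0.72, Myh8 1.20, Erdr1 -0.17, Loxl4 0.11, Gna12 0.38, Thada 1.08, Tnrc6a -0.28, Cat -0.25, Nqo1 -0.50, Klf2 -0.70, Per3 1.36, Spaca6 1.09, Arhgap27 0.79, Tnn 0.82, Kcne1 1.28 and Lpl -0.37. With the 5′ most probe they were Ddx3x -0.21, H2-K1 -0.20, Plagl1 -0.21, Gnas 0.37, Pdgfra -0.53, Bgn 0.012, Vapb -0.19, Ago1 -0.97 and Tnrc6a -0.39, and with the 3′ most Fam13c 0.70, Esyt2 0.36, Cyp51 0.083, Spaca6 0.21 and Klf2 -0.14. With the mean of probes they were Csf1r -0.0056, Gata6 -0.087, Tbx5 -0.068 and Ago1 -0.10, and without uneven spots Irf7 -0.0080. Within slide 1 they were Tap1 0.033, Peg10 -0.28, Nog 0.053 and Myh8 0.32, and within slide 2 Irf7 -0.62, Ctss -0.048, Ptprc -0.11, Adgre1 -0.51, Csf1r -0.36 and Fgf10 -0.044. With 1 array left out, Irf7 ranged from -0.40 to 0.48, Adgre1 from -0.022 to 1.06 and Csf1r from -0.11 to 0.85. The cause of these shifts was not tested. Dim probes limit the Y-linked and Xist values to bounds.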

Other observations

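Sterol synthesis, part of the list of cholesterol and fatty acid synthesis, had single genes higher in experiment 2. Cyp51, which removes a methyl group from lanosterol, read 0.31 and 0.03 in experiment 1 and 0.96 and 0.39 in experiment 2. Fdft1, squalene synthase, read 1.55 and 1.37 against 1.91 and 1.87, and Mvk, mevalonate kinase, -0.41 and -0.31 against 0.18 and 0.00. These 3 did not overlap between experiments and were among those named by the smallest unadjusted p. Yet 16 of the 28 genes of the list were higher in experiment 1 and its median was 0.04. Without overlap, 7 of the 28 were higher and 6 lower (background 25.7% and 14.6% of all genes). The other Cyp51 probes gave -0.75 and 0.08, and the second probes of Fdft1 and Mvk gave -0.26 and -0.19.

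Most stress genes were higher in experiment 1, while clock genes divided. Of 25 genes of unfolded protein and amino acid stress, 20 were higher and 5 lower (median 0.19). Among 17 clock genes measured, 9 were higher and 8 lower. Slc7a5, an amino acid transporter, read 1.87 and 1.35 against 1.01 and 0.95, while Atf4, the factor that drives amino acid stress genes, was lower, at 2.54 and 2.73 against 3.16 and 3.13. Cat and Nqo1, antioxidant enzymes, had gaps of 0.54 and 0.43. They were among 14 of 20 NRF2 list genes higher in experiment 1, against 62.0% of all genes. The clock repressors Nr1d1 and Per3 were at -0.51 and -0.50, and Klf2, a shear- and serum-responsive factor, at 0.56 with -0.14 on its second probe. In the small RNA pathway, 13 of 16 genes were higher in experiment 1 (median 0.15), among them Ago1 at 0.62 and Tnrc6a at 0.50, whose 5′ most probes gave -0.97 and -0.39. The 3′ most probes of Ago1 and Tnrc6a gave 0.05 and 0.13. With the 5′ most probe the list's median was -0.12, with the mean of probes -0.089, and within slides -0.077 and 0.48. Rrp12, of ribosome assembly, was at -0.74. The adjusted p of the genes named here lay between 0.116 and 0.155 (limma).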
